A study of Mus musculus with 24 samples.

Results

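The kallikrein-related peptidase genes Klk6, Klk7, Klk8, Klk9, Klk10 and Klk11 were followed through contusive spinal cord injury (SCI) in oligodendrocytes (OLs) and in whole cord. They are 6 of the 21965 genes in the count table and were chosen by name. The choice also used a measurement, that Klk8 and Klk9 were near zero in naive OLs and high in OLs at 2 days post-injury (dpi). For that reason the OL change at dpi 2 is a description for all 6 genes, and so is every value set against the naive OL level of Klk8 or Klk9.

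The mice carried a tamoxifen-inducible Cre that is active mainly in mature OLs and an Rpl22 allele that gains an HA tag after recombination (rpl22HA), and naive mice carried both too. Ribosomes of cells in which Cre had been active were pulled down with an anti-HA antibody. Their RNA is called OL here, and RNA of the whole lysate is called total RNA. By the labels the mice were female and either naive or 2, 10 or 42 days after a 50 kdyn contusion at vertebra T9, made at 10 to 12 weeks of age. By the study's methods, naive and dpi 42 tissue was taken on the same day, so the naive mice matched the dpi 42 mice in age and were older than those of dpi 2 and dpi 10, where age and injury cannot be told apart. Each of 12 tissue pools held cord segments of 2 mice and gave 1 OL and 1 total RNA library, so that each of the 8 groups had 3 libraries.

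Kallikrein-related peptidases are secreted serine proteases that are made with a propeptide and become active when it is cut off. Active enzymes cut extracellular matrix, adhesion molecules, growth factor precursors and protease-activated receptors, and serpins and other inhibitors block them. KLK6 is abundant in myelinating cells of the cord and cleaves myelin basic protein. KLK8, also called neuropsin, is best known in neurons of the forebrain, where it cleaves the adhesion molecule L1 and the receptor EphB2. KLK7 is a chymotrypsin-like enzyme best known from the shedding of skin cells.

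All 6 genes lie in the same direction on the plus strand of chromosome 7 (GENCODE M21, GRCm38, the build of the count table). Klk11 is at chr7:43774604-43779263, Klk10 at chr7:43781035-43785410, Klk9 at chr7:43791891-43796757, Klk8 at chr7:43797577-43803826, Klk7 at chr7:43811294-43816359 and Klk6 at chr7:43824499-43832030. Together they span 57427 bp, and the shortest gap, 819 bp, separates Klk9 from Klk8. All are annotated as protein-coding. Their coding sequences were 56.3% to 63.9% identical in pairs, and none of their transcripts shared a 50-base stretch with another gene. The antisense transcript 2310002F09Rik, which is not a row of the table, overlaps 382 bp or 24.8% of the exon length of Klk8 and no exon of Klk9, Klk10 or Klk11. Whether the counting used strand is not given in the sources used here, so reads of that transcript could be counted as Klk8.

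The 250 bases before the gene start (RefSeq, GRCm38.p6) are given for Klk6, Klk8 and Klk9, the members with the most counts in OLs at dpi 2. Capitals mark ACAAAG, a core letter run of SOX-type binding sites, found on the plus strand of the Klk6 window (chr7:43824294-43824543). The Klk8 window is chr7:43797327-43797576 and the Klk9 window is chr7:43791641-43791890.
Klk6: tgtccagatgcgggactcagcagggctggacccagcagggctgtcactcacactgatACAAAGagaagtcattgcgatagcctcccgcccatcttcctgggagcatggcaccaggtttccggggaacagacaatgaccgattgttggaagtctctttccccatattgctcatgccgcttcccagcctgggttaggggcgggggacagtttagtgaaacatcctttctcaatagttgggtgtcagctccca
Klk8: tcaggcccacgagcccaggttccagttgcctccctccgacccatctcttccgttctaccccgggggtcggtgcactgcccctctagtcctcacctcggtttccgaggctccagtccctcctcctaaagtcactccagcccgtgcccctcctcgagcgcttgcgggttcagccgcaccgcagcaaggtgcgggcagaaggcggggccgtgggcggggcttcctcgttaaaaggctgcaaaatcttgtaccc
Klk9: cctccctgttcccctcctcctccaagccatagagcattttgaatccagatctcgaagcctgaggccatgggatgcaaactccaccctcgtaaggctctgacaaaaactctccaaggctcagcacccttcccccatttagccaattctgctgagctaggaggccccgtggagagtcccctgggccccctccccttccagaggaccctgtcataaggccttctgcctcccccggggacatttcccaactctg

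In the printed Klk6 window the ACAAAG run began 193 bases before the start, and the window of the other RefSeq start of Klk6 held none. The RefSeq start of the printed window, 43824544, lies just inside the GENCODE span of Klk6 given above. All 6 members matched the RefSeq table, with 8 windows in all because Klk6 and Klk11 have a pair of starts each. Both strands were searched for ACAAAG, for TGANTCA (the AP-1 letters), for TTCNNNGAA (the STAT letters) and for TATAAA (the TATA box letters). The letters ACAAAG were in 2 of 8 member windows and in 16.5% of 32851 windows of all genes. TTCNNNGAA was in 1 member window, that of Klk10, and in 7.02% of all windows. TGANTCA (6.75% of all windows) and TATAAA (12.4%) were in 0 of 8. The Klk8 and Klk9 windows held none of these letters, which says nothing about the factors themselves. The Klk8 window was the richest in G and C of the 8, at 65.2%.

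Library totals were 29075211 to 32987841 counts in OL and 25840127 to 29050061 in total RNA, and 3 counts stood for 0.0840 to 0.127 CPM (counts divided by the TMM-scaled library total and set to a common scale). The 7 OL markers Mbp, Mog, Mag, Mobp, Cldn11, Opalin and Ermn summed to 70576 to 95408 CPM in OL and 14820 to 18647 CPM in total RNA. At dpi 42 the title and the description of 2 libraries named opposite fractions. They were placed by description, and their OL marker sums, 73241 CPM in the library placed in OL and 16819 CPM in that placed in total RNA, lay with those groups. In pool 2 of dpi 2 both libraries held 2414 to 2604 counts of 4 Y-linked genes, against 0 to 13 in the other 22. These counts conflict with the female label of that pool. Naive pool 3 stood apart for the members, with the lowest naive value of Klk6, Klk8 and Klk9 in both fractions, and values without it are given where a call changed. Without the conflicting pool, 5 members were called in total RNA at dpi 42 against naive and 3 were OL-enriched, the same counts as with it, and without pool 2 of dpi 2, 4 were called in total RNA at dpi 2, as with it.

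Klk6 was the dominant member at every time. In naive OLs it was at 1624, 1608 and 734 CPM in replicates 1 to 3. It was at 4345, 5099 and 3740 CPM at dpi 2, at 3664, 3466 and 3442 CPM at dpi 10, and at 3665, 3255 and 4557 CPM at dpi 42. No injured library overlapped a naive one. The dpi 2 libraries lay above those of dpi 10, and the range of dpi 42 overlapped both. Per kb of exon Klk6 ranked 33rd among 15485 genes with a count in naive OLs and 7th among 15197 at dpi 2. Its share of the counts of the 6 members was 99.8% to 99.9% in naive OLs and 92.3% to 92.8% at dpi 2. The 6 members together took 0.0601% to 0.123% of naive OL counts, 0.364% to 0.459% at dpi 2, 0.300% to 0.310% at dpi 10 and 0.281% to 0.382% at dpi 42.

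**Figure D1:**
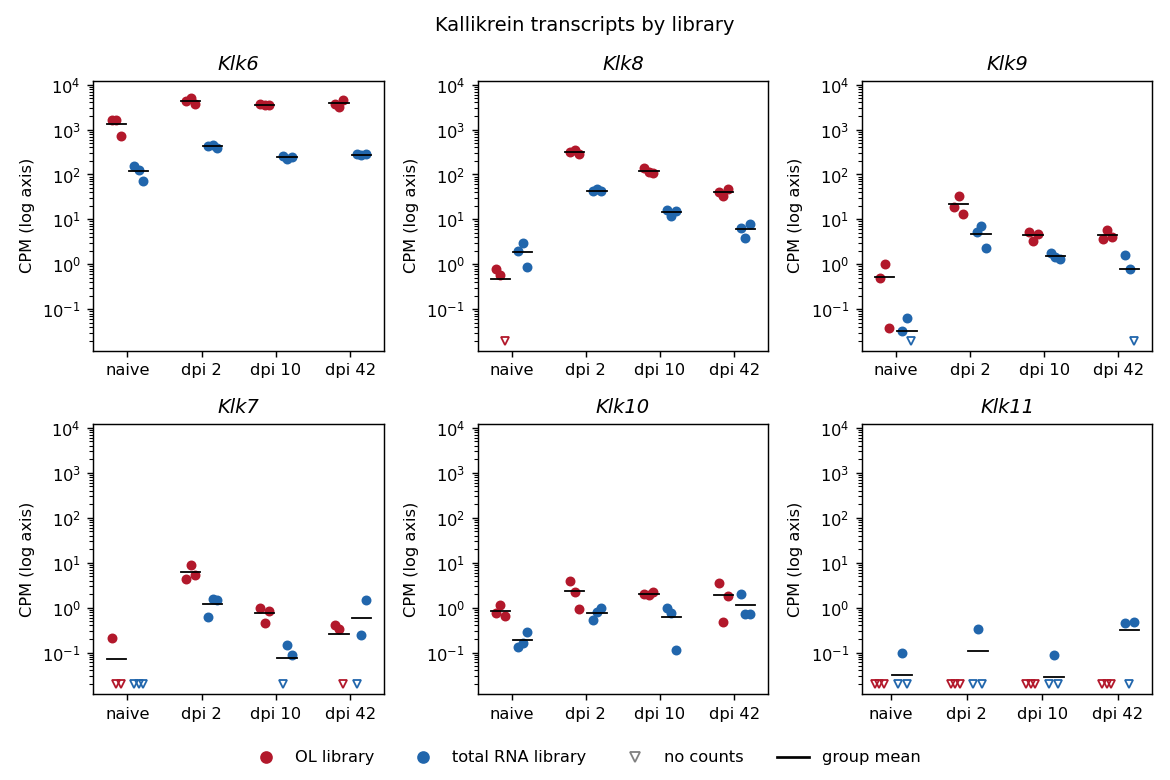
CPM of each member in all 24 libraries on a log axis, by time, with OL libraries in red, total RNA libraries in blue, open triangles for libraries with no counts (placed at the bottom of the axis) and lines at group means. Klk6 lay above the other members in every library, Klk8 and Klk9 were low in the naive cord and highest at dpi 2, and Klk11 had no counts in any OL library.

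In OLs the Log2FC of Klk6 against naive was 1.73 ± 0.25 (SE) at dpi 2, given as a description. It rose by 1.41 ± 0.25 at dpi 10 (q = 0.00036) and by 1.53 ± 0.25 at dpi 42 (q = 7.22e-05, edgeR quasi-likelihood test with Benjamini-Hochberg adjustment). Of the 3 members with OL counts whose naive OL level did not enter the choice (Klk6, Klk7 and Klk10), Klk6 was the 1 called higher in OLs at each of these times, where 6.82% of all genes tested were called higher at dpi 10 and 8.54% at dpi 42. Klk7 and Klk10 were not called (q = 0.134 or above). Between dpi 10 and dpi 42 Klk6 did not pass the test in OLs (Log2FC 0.12 ± 0.24, q = 0.867).

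Total RNA did not enter the choice of genes, though it came from the same tissue pools as OL. There Klk6 was at 155, 128 and 70.3 CPM in the naive cord and at 431, 445 and 386 CPM at dpi 2. It was at 254, 222 and 249 CPM at dpi 10 and at 286, 265 and 282 CPM at dpi 42. All injured libraries lay above all naive ones, and the dpi 2 libraries lay above the later ones. Klk6 rose by 1.84 ± 0.25 at dpi 2 (q = 6.55e-06), 1.04 ± 0.25 at dpi 10 (q = 0.00244) and 1.24 ± 0.25 at dpi 42 (q = 0.000953). Without naive pool 3 the last of these were 0.77 and 0.97, under the fold limit of 1, with q = 0.000276 and 5.62e-05. Leaving out only the total RNA library of that pool gave the same pair of Log2FC values, and without dpi 10 total RNA replicate 1 the dpi 10 value was 1.00, just short of the limit.

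Klk8 stood at 0.798, 0.592 and 0 CPM in naive OLs, that is at 19, 14 and 0 counts. At dpi 2 it was at 316, 352 and 291 CPM, from 8354, 8680 and 7604 counts. It was at 140, 114 and 107 CPM at dpi 10 and at 40.6, 33.3 and 46.9 CPM at dpi 42. These 4 groups did not overlap with one another. The Log2FC against naive was 9.45 ± 0.51, 8.05 ± 0.50 and 6.46 ± 0.48 at dpi 2, 10 and 42, given without a test because the low naive level chose the gene. Per kb, Klk8 ranked 11813th in naive OLs and 187th at dpi 2.

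The later course of Klk8 did not enter the choice and was tested. Klk8 fell by 1.58 ± 0.34 between dpi 10 and dpi 42 in OLs (q = 0.00857), and it was the 1 of 5 members with OL counts called lower, where 1.22% of all genes were. Per kb, Klk8 was at 6.78% to 7.64% of Klk6 in OLs at dpi 2, at 3.07% to 3.76% at dpi 10 and at 1.00% to 1.09% at dpi 42. Whether Klk8 and Klk6 differed in their change over this interval was not itself tested.

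In total RNA Klk8 was at 1.97, 2.93 and 0.856 CPM in the naive cord, above its level in naive OLs in every library. It was at 42.1, 46.5 and 43.4 CPM at dpi 2, at 16.1, 11.7 and 15.3 CPM at dpi 10, and at 6.50, 3.84 and 7.97 CPM at dpi 42. No 2 of these groups overlapped. Klk8 rose against naive by 4.52 ± 0.40 at dpi 2 (q = 3.1e-08), 2.90 ± 0.39 at dpi 10 (q = 6.86e-06) and 1.67 ± 0.38 at dpi 42 (q = 0.00311). It fell by 1.62 ± 0.34 from dpi 2 to dpi 10 (q = 0.00399), the 1 member of 6 called lower, where 0.967% of all genes were. Klk7 (-3.89 ± 1.45, q = 0.121) and Klk9 (-1.68 ± 0.78, q = 0.233) did not pass there. Klk6 (-0.80 ± 0.24, q = 0.0481) was short of the fold limit, and 4 of 6 members had an unadjusted p under 0.05. From dpi 10 to dpi 42 the Log2FC of Klk8 was -1.23 ± 0.35 (q = 0.161). None of the 6 members was called in that last comparison in the main edgeR fit, where 1 had an unadjusted p under 0.05 and 13 of 17167 genes (0.0757%) were called. Klk8 was called there with only the groups compared in the fit (q = 0.00939) and by DESeq2 (q = 0.0122).

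Klk9, a member of the family with few known roles, was at 0.504, 1.02 and 0.0382 CPM in naive OLs. At dpi 2 it was at 18.9, 33.2 and 13.2 CPM, at dpi 10 at 5.28, 3.23 and 4.72 CPM, and at dpi 42 at 3.60, 5.82 and 4.15 CPM. The dpi 2 libraries were the highest, those of dpi 10 and dpi 42 overlapped, and the naive ones were the lowest. Its Log2FC in OLs was 5.39 ± 0.93, 3.09 ± 0.87 and 3.13 ± 0.87 at dpi 2, 10 and 42, as a description, and 0.04 ± 0.76 from dpi 10 to dpi 42 (q = 1). Per kb, Klk9 was at 4.75% to 9.86% of Klk8 in OLs at dpi 2.

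In total RNA of the naive cord Klk9 had 1, 2 and 0 counts, so its fold changes are bounds against 3 counts a library. It was at 5.12, 7.12 and 2.30 CPM at dpi 2, with a mean at least 50.1-fold higher than the naive floor (q = 5.74e-05). It was at 1.75, 1.47 and 1.32 CPM at dpi 10, with a mean at least 15.6-fold higher (q = 0.00116). At dpi 42 it was at 1.60, 0.779 and 0 CPM, so that 1 library had no counts, as in the naive cord. The mean was at least 8.21-fold higher (q = 0.00966), and without dpi 42 total RNA replicate 1 the call was lost (q = 0.0733).

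Klk7 was measured by few reads. It had 5, 0 and 0 counts in naive OLs, 115, 217 and 137 at dpi 2, 25, 12 and 22 at dpi 10, and 12, 9 and 0 at dpi 42. The dpi 2 libraries were above all others, and at dpi 42 a library had no counts. In total RNA it had no counts in the 3 naive libraries and 22, 51 and 48 at dpi 2, a mean at least 12.4-fold higher than the naive floor (q = 0.00405). It had 0, 5 and 3 counts at dpi 10 (q = 0.157) and 8, 0 and 52 at dpi 42. The dpi 42 call (at least 5.93-fold by the means, q = 0.0183) rested on 1 library. It was lost without total RNA replicate 3 of dpi 42 (q = 0.131) and without any 1 of the naive total RNA libraries (q = 0.0570 to 0.0594).

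Klk10 was present at a low level in every library. In OLs it was at 0.756, 1.14 and 0.650 CPM in naive mice, at 3.82, 2.27 and 0.918 CPM at dpi 2, at 2.02, 1.94 and 2.21 CPM at dpi 10, and at 3.50, 0.485 and 1.84 CPM at dpi 42. The naive range overlapped those of dpi 2 and dpi 42 and not that of dpi 10. Its Log2FC in OLs did not pass the test at dpi 10 (1.27 ± 0.77, q = 0.285) or at dpi 42 (1.19 ± 0.77, q = 0.254). In total RNA it was at 0.131, 0.161 and 0.285 CPM in the naive cord and at 2.00, 0.719 and 0.712 CPM at dpi 42, where it rose by 2.54 ± 0.82 (q = 0.0291). That call was lost without naive pool 3 (q = 0.0544), without each naive total RNA library in turn (q = 0.0517 to 0.109) and without dpi 42 total RNA replicate 1 (q = 0.159). At dpi 2 the Log2FC was 1.97 ± 0.81 and did not pass by edgeR with TMM scaling (q = 0.0627), while it was called with library sizes alone (2.19, q = 0.0412) and by DESeq2 (2.03, q = 0.0307).

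Klk11 had no counts in any of the 12 OL libraries and at most 17 counts in total RNA. Its highest total RNA level was 0.484 CPM, at dpi 42, and 7 of 12 total RNA libraries had none. No fold change is given, since its level was not detectable in OLs at this depth. Of the 6 members, 4 were thus called higher in total RNA at dpi 2 in the main edgeR fit, where 10% of all genes were called higher, and DESeq2 called 5, with Klk10 added. At dpi 10 there were 3 (Klk6, Klk8 and Klk9), beside 9.2% of all genes, and at dpi 42 there were 5, beside 6.66%. Klk8 and Klk9 were in each of these counts. Both were chosen for their OL rise at dpi 2, and total RNA came from the same tissue pools. The counts are therefore not independent of the choice. The dpi 42 count fell to 2 without naive total RNA replicate 3, and to 3 without naive total RNA replicate 1 or 2 or without dpi 42 total RNA replicate 1. In bulk tissue, more cells of a type and more RNA per cell cannot be told apart.

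**Figure D2:**
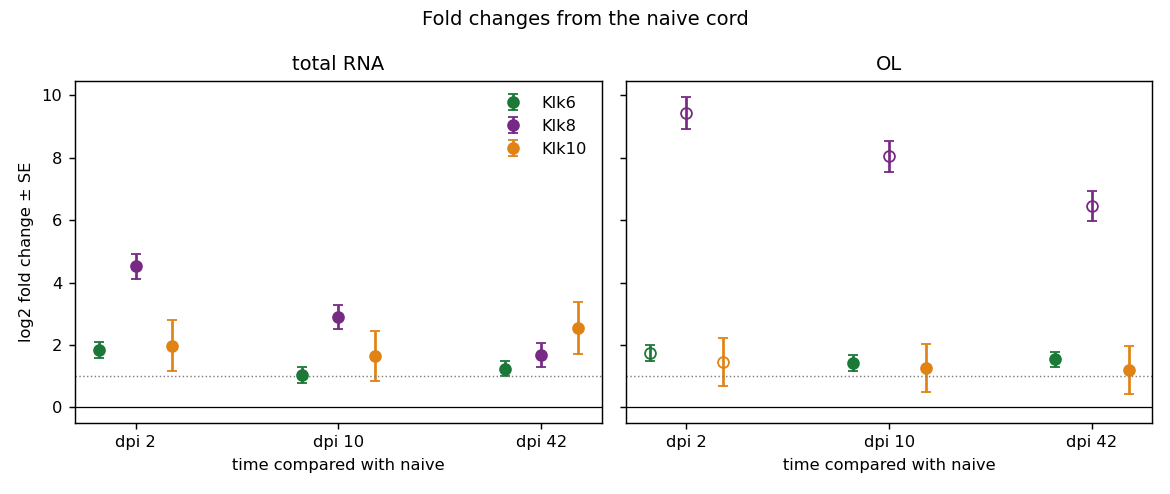
Log2 fold change against naive with its SE for Klk6, Klk8 and Klk10, in total RNA at left and in OLs at right, with open symbols for values that are descriptions without a test, filled symbols for tested values (called or not) and a dotted line at the fold limit of 1. Klk8 declined from 4.52 at dpi 2 to 1.67 at dpi 42 in total RNA, while Klk6 lay between 1.04 and 1.84.

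OL enrichment compares OL with total RNA of the same time. Klk6 was OL-enriched throughout, with Log2FC of 3.49 ± 0.27, 3.38 ± 0.27, 3.87 ± 0.27 and 3.78 ± 0.27 in naive, dpi 2, dpi 10 and dpi 42 (q = 8.86e-10 or less). In single tissue pools the OL to total RNA ratio of Klk6 was 10.4 to 12.5 in naive mice, 9.69 to 11.5 at dpi 2, 13.8 to 15.6 at dpi 10 and 11.4 to 16.1 at dpi 42. The change of Klk6 in OLs beyond that in total RNA did not pass the test at dpi 10 (0.38 ± 0.34, q = 0.629) or at dpi 42 (0.30 ± 0.34, q = 0.716). None of the 3 testable members with OL counts passed this test of differential enrichment at either time by edgeR or DESeq2, and 0 had an unadjusted p under 0.05. Among all genes 1.48% were called higher and 1.43% lower at dpi 10, and 1.56% and 1.42% at dpi 42.

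Klk8 went from the total RNA side to the OL side. Its OL to total RNA ratio was 0 to 0.406 in the naive pools, and 6.70 to 7.57 at dpi 2, 7.03 to 9.76 at dpi 10 and 5.12 to 10.6 at dpi 42. As a Log2FC these were -2.07 ± 0.52 and 2.86 ± 0.35 in naive and dpi 2 mice, as descriptions. The later enrichments were tested and were 3.07 ± 0.36 at dpi 10 (q = 2.51e-07) and 2.72 ± 0.36 at dpi 42 (q = 1.48e-06). Naive Klk8 counts were 27 to 91 in total RNA and 0 to 19 in OL, so that the naive ratio rests on few reads.

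**Figure D3:**
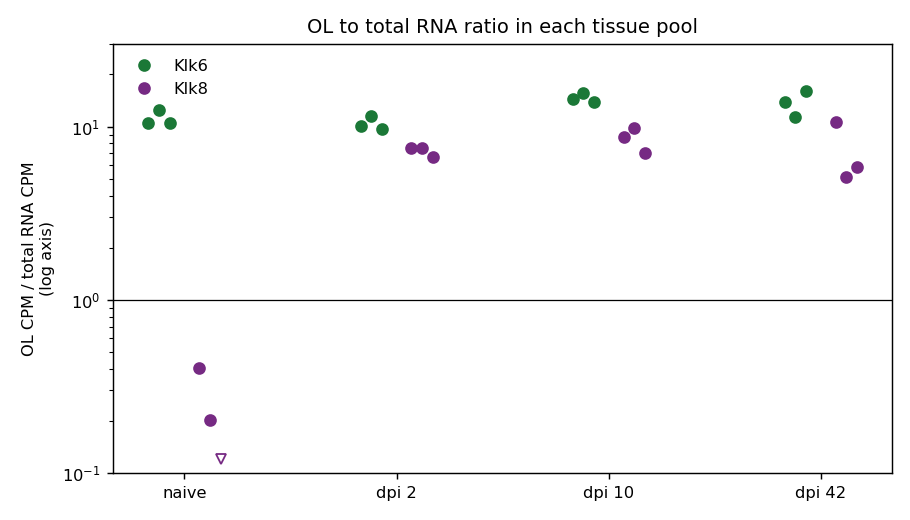
Ratio of OL CPM to total RNA CPM in each tissue pool on a log axis, for Klk6 and Klk8, with a line at 1 and an open triangle for the naive pool with no Klk8 counts in OL. Klk6 lay between 9.69 and 16.1 in all pools, and Klk8 lay below 1 in naive pools and above 5 after injury.

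The other members were less even. Klk9 was OL-enriched at dpi 42 (2.50 ± 0.82, q = 0.0135), where 1 total RNA library had no counts. Its Log2FC there was 1.92 without that library (replicate 3) and 3.53 without total RNA replicate 1, called in both cases, and with only the groups compared in the fit the call was lost (q = 0.0972). At dpi 10 Klk9 did not pass (1.54 ± 0.78, q = 0.104), and with only the groups compared it was called (q = 0.00367).

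Klk10 was enriched in naive mice (2.12 ± 0.82, q = 0.0332). That call was lost with the tissue pool as a block (q = 0.109), with library sizes alone (q = 0.0967), without naive total RNA replicate 1 (q = 0.105) or 2 (q = 0.0921) and without naive OL replicate 2 (q = 0.0706). After injury Klk10 did not pass in the main edgeR fit (q = 0.0645 to 0.414). It was called at dpi 10 by DESeq2 (1.66, q = 0.0464) and at dpi 2 without OL replicate 3 (1.93, q = 0.0463). Klk7 did not pass in the main edgeR fit at any time (q = 0.0651 to 0.475). With only the groups compared in the fit it was called at dpi 2 (2.35, q = 0.00912) and at dpi 10 (3.28, q = 0.0496), and DESeq2 called it at dpi 10 (3.20, q = 0.0393). Among tested members with OL counts, 2 of 3 were OL-enriched in naive mice in the main edgeR fit (21.7% of all genes), 1 of 3 at dpi 2 (20.5%), 2 of 5 at dpi 10 (21.2%) and 3 of 5 at dpi 42 (21.1%).

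In OLs at dpi 2 Klk11, the first of the members on the chromosome, had no counts. Per kb there, Klk10 was at 1.70 ± 1.06 CPM (SD, n = 3), Klk9 at 14.8 ± 6.98, Klk8 at 207 ± 19.8, Klk7 at 3.23 ± 1.24 and Klk6 at 2904 ± 450. Mean levels thus rose along the cluster, except at Klk7. Klk7, which lies between Klk8 and Klk6, was at 1.12% to 2.03% of Klk8. In naive OLs Klk10, Klk9 and Klk8 did not rise in that order, at 0.619 ± 0.189, 0.352 ± 0.331 and 0.301 ± 0.269 CPM per kb. Their naive ranges overlapped, with 27 counts or fewer in each library. Klk8 and Klk9 were chosen for low naive and high dpi 2 levels, so this difference in order is not independent of the choice. Outside the members, 21 other kallikrein genes were in the table, the plasma kallikrein gene Klkb1 among them. Of these, 13 had no count in any library, 4 had a count but never 10, and 4 reached 10 counts. The highest counts of those were 27 for Klkb1 and 22 for Klk13 (each in an OL library), 20 for Klk1b27 and 10 for Klk5 (each in a total RNA library).

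**Figure D4:**
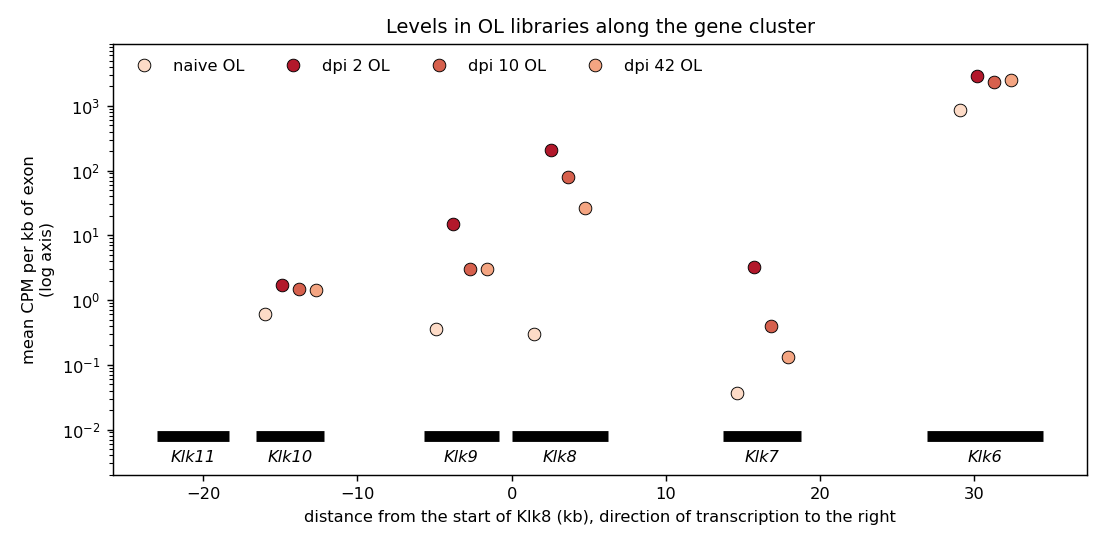
Mean CPM per kb of exon in OLs at each time (log axis) for each member, at its distance in kb from the start of Klk8, with black bars for the genes. Symbols of a gene are shifted sideways by time, and Klk11 has none because it had no counts in OL. Klk6 and Klk8 lay highest after injury, with Klk7 between them at 3.23 CPM per kb or less.

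Beyond the cluster, 3 protein-coding genes on each side were read in the same way. Ctu1, a tRNA thiolation enzyme, was at 14.4 ± 1.45 CPM in naive OLs and 16.7 ± 5.17 CPM at dpi 2 (Log2FC 0.21 ± 0.24, q = 0.533). 2410002F23Rik was at 38.9 ± 3.74 and 37.0 ± 2.06 CPM (-0.07 ± 0.13, q = 0.708). Gm36864 had no counts, and Ceacam18, Siglece and 1700028J19Rik were at 0.484 CPM or less in OLs on average. None of the 5 with a summed count of at least 10 was called in OLs against naive at any time. At dpi 2, 10.2% of all genes were called higher and 6.85% lower. Ceacam18, Siglece and 1700028J19Rik had SEs of 1.48 to 2.57 against naive in OLs, so the count says little about them.

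The receptors that kallikreins can cleave were measured next. Of the 4 protease-activated receptor genes, 0 were called in OLs at dpi 2, where 10.2% of all genes were called higher and 6.85% lower, and none had an unadjusted p under 0.05 by edgeR. F2r (PAR1) was at 1.65 ± 1.36 CPM in naive OLs and 2.14 ± 0.37 CPM at dpi 2 (Log2FC 0.37 ± 0.49, q = 0.62), against 20.3 ± 1.43 and 15.8 ± 1.24 CPM in total RNA. F2rl1 (PAR2) had no counts in any OL library. F2rl3 had none in OLs at dpi 2 and a mean of 0.113 CPM in naive OLs. The count of 0 called at dpi 2 thus rests on F2r and F2rl2, both low in OLs. F2rl2 (PAR3) had a mean of 0.394 CPM in naive OLs, 0.543 CPM at dpi 2, 0.0508 CPM at dpi 10 and 0.864 CPM at dpi 42. It was called lower at dpi 10 than in naive mice (q = 0.0488), where 1.26% of all genes were, and higher at dpi 42 than at dpi 10 (q = 0.0124), where 0.483% were. No fold is given because the dpi 10 mean was under the level of 3 counts. At dpi 2, 3 of 4 were lower in OL than in total RNA, where 27.2% of all genes were, with F2r at -2.88 ± 0.50 (q = 4.6e-05). F2rl1 was among them, with no OL counts against 0.387 ± 0.191 CPM in total RNA.

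Among 19 tested inhibitors of serine proteases, 5 rose and 1 fell in OLs at dpi 2, beside 10.2% and 6.85% of all genes (median Log2FC 0, as over all genes). Serpina3c and Serpina3m rose from naive means under the level of 3 counts, so that their fitted changes are not ranked. Serpina3c had 2 counts or fewer in each naive library, and its mean at dpi 2 was at least 162-fold higher than the naive floor (q = 1.6e-06). Serpinb1a fell by 2.16 ± 0.26 (q = 1.2e-06). Serpina3n, a secreted serpin, went from 59.5 ± 23.3 CPM in naive OLs to 7569 ± 97.1 CPM at dpi 2, 3008 ± 239 CPM at dpi 10 and 1889 ± 184 CPM at dpi 42. Among 14 tested secreted or membrane serine proteases outside the family, 4 rose and 0 fell in OLs at dpi 2, beside the same 10.2% and 6.85% of all genes (median Log2FC 1.01, against 0 over all genes). They ranged from Prss23 (4.97 ± 0.67, q = 5e-06) to Plau, the urokinase gene (2.06 ± 0.42, q = 0.00055). Lower in OL than in total RNA at dpi 2 were 8 of the 19 inhibitors and 4 of the 14 proteases, Plau among them. Higher in OL were 6 and 2, where 27.2% of all genes were lower and 20.5% higher.

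Of 7 genes for reported substrates, 2 rose and 1 fell in OLs at dpi 2, where 10.2% of all genes rose and 6.85% fell (median Log2FC -0.25, against 0 over all genes). Fn1, for fibronectin, rose by 4.58 ± 0.47 (q = 1.5e-07) and Vtn by 1.25 ± 0.42 (q = 0.022), and App fell by 1.55 ± 0.14 (q = 2.6e-08). Mbp, for myelin basic protein, did not pass the test (-0.25 ± 0.12, q = 0.12), nor did L1cam (0.28 ± 0.23, q = 0.37). Ephb2 was at -0.64 ± 0.23 (q = 0.034), short of the fold limit. At dpi 2, 5 of the 7 were lower in OL than in total RNA, Fn1 and Vtn among them, and 2 were higher. Over all genes 27.2% were lower and 20.5% higher. Fn1 was at 46.7 ± 25.8 CPM in OL and 355 ± 29.0 CPM in total RNA, where it rose by 4.73 ± 0.44 (q = 5.6e-08). Vtn was at 3.44 ± 1.93 CPM in OL and 53.7 ± 13.5 CPM in total RNA. The part of other cells in these OL values was not tested.

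Over the 12 OL libraries the genes most like Klk6, by Pearson r of log2 CPM among 12609 genes, were Rab3b (0.98), Npdc1 (0.98), Elf4 (0.97), Calm2 (0.97) and Lbh (0.96). Those most like Klk8 were Runx1 (0.99), Rab3b (0.98), Serpina3n (0.98), Tmsb10 (0.98) and Fgfr4 (0.98). Runx1, for a transcription factor, was at 0.154, 10.6, 4.97 and 3.07 CPM on average in naive, dpi 2, dpi 10 and dpi 42 OLs. Rab3b, for a small GTPase of vesicle traffic, was at 11.1, 84.9, 50.6 and 46.2 CPM. Among the members themselves r with Klk8 was 0.96 for Klk6, 0.94 for Klk9, 0.78 for Klk7 and 0.59 for Klk10. All these r values are descriptions, and that of Klk8 with Klk9 rests on the same naive and dpi 2 levels for which the pair was chosen. The libraries share times and tissue pools, so they are not independent points.

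Markers of other cells moved in OL libraries as well. The summed level of 8 myeloid markers was 4.95 to 7.23 CPM in naive OLs, 63.6 to 81.6 CPM at dpi 2, 198 to 220 CPM at dpi 10 and 122 to 205 CPM at dpi 42, with none at 0 in a group. In total RNA the same markers reached 1014 to 1298 CPM at dpi 2 and 2997 to 4139 CPM at dpi 10. All 8 were called higher in OLs at dpi 2, where 10.2% of all genes were. Schwann cell markers (6 genes) summed to 700 to 1316 CPM in naive OLs, 1046 to 1596 CPM at dpi 2, 1858 to 2719 CPM at dpi 10 and 2041 to 2333 CPM at dpi 42. Their dpi 10 and dpi 42 sums lay above all naive ones. Of the 6, 1 was called higher at each time, Sox2 at dpi 2 and Ncmap at dpi 10 and dpi 42. Over all genes 10.2%, 6.82% and 8.54% were called higher at dpi 2, 10 and 42. Fibroblast and meningeal markers (6 genes) summed to 50.9 to 90.0 CPM in naive OLs, 202 to 245 CPM at dpi 2, 431 to 487 CPM at dpi 10 and 195 to 231 CPM at dpi 42. At each time 5 of 6 were called higher, beside the same shares of all genes, and none was at 0 in a group. Of 6 endothelial markers 4 were called higher and 1 lower in OLs at dpi 2, beside 10.2% and 6.85% of all genes. Keratinocyte markers (8 genes) summed to a mean of 9.42 CPM in naive OLs and 6.99 CPM at dpi 2, with Krt5, Krt14 and Krtdap at 0 in both groups. Astrocyte markers (6 genes) spread widely in OL. They summed to 1297 to 8448 CPM in naive mice and 945 to 7676 CPM at dpi 2. Later sums were 2040 to 6259 CPM at dpi 10 and 1915 to 12188 CPM at dpi 42. Lower in OL than in total RNA were 1 of 6 at dpi 10 and 0 at the other times, beside 27% to 28.6% of all genes. Neuron markers (6 genes) summed to 451 to 596 CPM in naive OLs and 317 to 545 CPM at dpi 2. OL precursor markers (6 genes) summed to 23.2 to 72.6 and 26.9 to 70.1 CPM there. The part of other cells in the member values was not tested.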

How the data were processed

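Total and HA-immunoprecipitated polysomal RNA of 24 libraries was sequenced. The authors aligned reads to the mouse genome (mm10, GRCm38) with STAR and counted them on genes with HTSeq 0.10.0 (per the labels' processing notes), and deposited raw counts in 1 table, which was used as deposited. Gene symbols came from GENCODE M21. Groups followed the labels' descriptions.

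The 17167 genes with a summed count of at least 10 were fitted with edgeR 4.0.16 (R 4.3.3) as 8 group means, with TMM scaling, the quasi-likelihood F test and Benjamini-Hochberg adjustment (q) over all of them. This fit of all 24 libraries is called the main fit. Calls needed q under 0.05 and a Log2FC past 1, or past 0.5 for OL enrichment. The SE is the Log2FC divided by the root of F. Values at or under 3 counts in a group were replaced by that floor for fold bounds, which cover counting error only. Each library is a pool of 2 mice. OL and total RNA libraries of a tissue pool come from the same mice, and their deviations from group means correlated at r = 0.04 to 0.14 in naive, 0.09 to 0.11 at dpi 2, 0.02 to 0.06 at dpi 10 and -0.01 to 0.02 at dpi 42. Alternatives were other scalings and filters, DESeq2 1.42.0, smaller fits, blocks and libraries left out.

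Named genes were the 6 members, other kallikrein genes reaching 10 counts, called extremes and targets in 4 gene lists, neighbours of the cluster and the 5 genes most like Klk6 or Klk8. Members and lists were chosen with earlier results of these data known. The fit was tested on simulated data in which only genes with many counts changed. That test does not cover the low counts of Klk7, Klk10 and Klk11. An OL marker and a substrate gene of the lists are not reported here.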

Additional observations from a re-analysis of the deposited data

How the results depend on the processing

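In OLs the calls of Klk6 against naive and of Klk8 between dpi 10 and dpi 42, and the OL enrichment of both where tested, kept their direction and side of the threshold in every alternative run. The number of members called changed by over 1.5 times in some settings. With library sizes alone, and with the replicate block by tissue pool, 1 member was OL-enriched in naive mice in place of 2. With only the groups compared in the fit, 3 members in place of 1 were called between dpi 2 and dpi 10 in total RNA, 1 in place of 0 between dpi 10 and dpi 42, 2 in place of 1 for OL enrichment at dpi 2 and 4 in place of 2 at dpi 10. DESeq2 called 2, 1 and 4 in the first, second and last of these. Without naive pool 3 (chosen after seeing the data), 3 in place of 5 were called in total RNA at dpi 42. With 1 library left out at a time the count ranged from 2 to 5 there, 2 to 3 in total RNA at dpi 10, 1 to 2 for OL enrichment in naive mice and 1 to 2 at dpi 2. The causes were not tested.

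The replicate block by number left 4 of the 5 calls in total RNA at dpi 42, with Klk10 lost (2.39, q = 0.0665), and changed no other call. Between times that number marks no shared mice. The pool block changed no call other than that of naive Klk10 (2.14, q = 0.109).

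Signs turned only for values that had not passed the test. From dpi 10 to dpi 42 in OLs Klk9 was at -0.067 with the replicate block and -0.0056 with TMM against naive total RNA replicate 1 (added after seeing the data), and it ranged from -0.23 to 0.13 with a library left out, Klk6 from -0.10 to 0.18 and Klk10 from -0.85 to 0.32. OL enrichment at dpi 42 was 0.19 for Klk7 with the pool block and -0.22 for Klk10 without the pool with conflicting labels, and ranged from -1.75 to 1.06 for Klk7 with a library left out. Klk10 ranged from -0.82 to 0.17 between dpi 2 and dpi 10 in total RNA. Differential enrichment ranged from -0.035 to 0.64 for Klk6 and -0.87 to 0.12 for Klk10 at dpi 10, and from -0.15 to 0.56 for Klk6 at dpi 42. Library sizes alone shifted OL enrichment of all genes by -0.50 to -0.58 and changes against naive by 0.11 to 0.22. With 3 libraries a group and few counts, Klk7, Klk9, Klk10 and Klk11 were measured with SEs of 0.75 or more.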
